A study of Mus musculus with 64 samples.

Results

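Yap1 and Wwtr1 encode YAP and TAZ, a pair of closely related transcriptional co-activators, and their expression was followed here together with 8 genes of the same pathway in mouse pancreatic tumor cells grown with and without fibroblasts. The 8 genes were Tead1 (a DNA-binding partner), Lats2 (an inhibitory kinase), Amotl2 and Ajuba (regulators of the pathway), Ctgf, Cyr61 and Ankrd1 (target genes) and Axl (a receptor tyrosine kinase and target gene). The 10 genes were chosen by name from the 39017 genes of the count table, and all 10 passed the filter on low counts that left 14134 genes for testing. RNA was sequenced from 8 tumor cell lines in 2 cultures, with 4 libraries for each line and culture and 64 in all. Each of 7 lines (clones E, H, K, M, N, T and V) is a single clone taken from a polyclonal line of 1 tumor of a KPC mouse (Trp53 R172H, Pdx1-Cre), the study's model of pancreatic cancer. The remaining line is named KPC1, and the labels give nothing further on its origin. In mono-culture the tumor cells grew alone, and in coculture they shared the dish with fibroblasts for 48 h and were then sorted by the green fluorescent protein (GFP) that only the tumor cells carried. The strain background of every library is given as C57BL/6 mixed, and the mutant alleles of the KPC model, which the Cre driver recombines in pancreatic epithelium, are common to both cultures of every clone. A clone stands for itself as a single isolate of 1 tumor. The labels state neither whether the mono-cultures were also sorted nor whether the 4 libraries of a line came from separate cultures. The p-values within a line therefore rest on the spread between libraries of the same line and culture, which may be technical. For each gene this spread was estimated over all 64 libraries together, so it is not that of the line's own libraries alone. If the mono-cultures were not sorted, a change with coculture and a change with sorting cannot be told apart in any comparison below.

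YAP and TAZ do not bind DNA themselves and reach their target genes through the TEAD transcription factors. The Hippo kinases, with LATS1 and LATS2 as the last step, phosphorylate YAP and TAZ, which keeps them out of the nucleus and marks them for degradation, so RNA levels of Yap1 and Wwtr1 do not report how much of either protein is active. In pancreatic tumors YAP and TAZ are known for their role in tumor growth and for their response to the stiff, fibroblast-rich surroundings of the tumor cells.

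Library totals lay between 11178721 and 21333683 counts, and the member with the fewest reads, Ctgf, still had 360 counts in its lowest library, so counting error adds little to the spread of the libraries. Of the 10 fibroblast markers examined, all 10 passed the test as higher in coculture, with a summed level of 47.9 to 254 CPM, read counts scaled to the size of each library, over the mono-culture libraries and of 213 to 1889 CPM over the coculture libraries. Dcn, Lum, Thy1, Postn and Fap were at or near 0 in mono-culture (never above 1 CPM). The part that RNA of fibroblasts, which also express YAP, TAZ and their targets, took in the changes below was not tested. In bulk RNA, a change in the share of cells and a change of RNA per cell cannot be told apart. Of 5 epithelial markers, 3 passed the test as lower in coculture and none as higher. The keratin genes Krt19 and Krt8 changed by a mean of -0.68 (adjusted p = 0.00246) and -0.49 (adjusted p = 0.0889) on the log2 scale over the lines and Epcam by -1.19 (adjusted p = 0.0571). Krt18, at 861 to 1731 CPM in mono-culture, changed by 0.04 (adjusted p = 0.765) and Cdh1 by 0.003 (adjusted p = 0.986). The mean summed level of the 5 markers was higher in coculture in clones M (2947 against 2227 CPM) and K (3036 against 2848 CPM) and lower in the other lines. The part of these epithelial marker changes in the changes below was not tested either. Epcam stayed at or below 0.742 CPM in every library. Immune and endothelial markers stayed at or below 3.41 CPM. The numbers in the labels run up to 64, in a series up to 43 that held 43 libraries and a series above it that held 21, and all 4 mono-culture libraries of clone K belonged to the second.

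The sequences that TEAD factors are known to recognize contain CATTCC, or GGAATG when read on the other strand. This motif was searched on both strands in the 250 bases before each gene's start in RefSeq (GRCm38.p6), where 8 members had an entry by symbol, all but Ctgf and Tead1. It was found for 7 of these 8 members. By promoter, 8 of the members' 10 held it, against 12.6% of all 32851 promoters of the same length. Lats2 had no match before either of its 2 starts, and Ajuba and Ankrd1 each had 2 matches, a number reached by 1.02% of all promoters. The windows of the co-activator genes and of 3 further members are printed, 5′ to 3′ on the strand of the gene, with the matches in capitals, so that the distance of the match to the start, at the right end, can be read.
Yap1, chr9:8004597-8004846, minus strand: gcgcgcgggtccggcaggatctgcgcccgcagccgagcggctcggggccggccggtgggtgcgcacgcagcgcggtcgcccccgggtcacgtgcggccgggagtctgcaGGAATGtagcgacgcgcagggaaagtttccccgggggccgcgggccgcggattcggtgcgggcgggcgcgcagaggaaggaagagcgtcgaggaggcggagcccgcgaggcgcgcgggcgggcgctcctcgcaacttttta
Wwtr1, chr3:57575911-57576160, minus strand: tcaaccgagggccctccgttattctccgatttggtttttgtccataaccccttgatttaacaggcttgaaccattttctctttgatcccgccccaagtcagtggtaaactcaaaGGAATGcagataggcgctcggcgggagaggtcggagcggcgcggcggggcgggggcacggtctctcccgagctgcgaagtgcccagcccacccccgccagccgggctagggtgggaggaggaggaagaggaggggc
Ajuba, chr14:54577662-54577911, minus strand: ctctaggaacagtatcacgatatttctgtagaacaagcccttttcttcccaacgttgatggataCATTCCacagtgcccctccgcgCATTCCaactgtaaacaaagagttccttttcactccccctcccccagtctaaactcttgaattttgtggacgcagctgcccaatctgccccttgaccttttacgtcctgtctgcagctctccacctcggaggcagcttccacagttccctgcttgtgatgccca
Cyr61, chr3:145649986-145650235, minus strand: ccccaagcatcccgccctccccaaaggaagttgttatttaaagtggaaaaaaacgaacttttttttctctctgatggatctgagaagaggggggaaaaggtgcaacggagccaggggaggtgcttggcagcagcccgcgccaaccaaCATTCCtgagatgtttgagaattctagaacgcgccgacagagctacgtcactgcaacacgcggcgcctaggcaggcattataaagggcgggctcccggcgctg
Axl, chr7:25788734-25788983, minus strand: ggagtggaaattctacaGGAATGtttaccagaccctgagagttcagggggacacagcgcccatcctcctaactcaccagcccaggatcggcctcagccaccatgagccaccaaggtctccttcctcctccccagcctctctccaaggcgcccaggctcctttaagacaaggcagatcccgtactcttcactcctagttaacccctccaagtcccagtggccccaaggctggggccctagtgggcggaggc
For Ankrd1, the member that changed most in coculture, and for Amotl2, the match is shown with 12 bases on either side.
Ankrd1 site 1, chr19:36120037-36120066, minus strand: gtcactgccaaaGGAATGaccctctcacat
Ankrd1 site 2, chr19:36119950-36119979, minus strand: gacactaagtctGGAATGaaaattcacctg
Amotl2 site, chr9:102717727-102717756, plus strand: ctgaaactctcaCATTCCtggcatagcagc
In Cyr61 the match began 103 bases before the start, in Amotl2 65 bases, in Wwtr1 136, in Yap1 141 and in Axl 233. The same site of Wwtr1 began 170 bases before another start of this gene, whose window is not printed. The 2 matches of Ajuba began 186 and 164 bases before its start, and those of Ankrd1 began 210 and 123 bases before it. A match describes the letters of the window, and binding was not measured here.

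Levels of different genes were compared per length, as reads scaled by gene length and library total (RPKM). Axl and Cyr61 were the most abundant members, with medians of 273 and 199 RPKM over the 32 mono-culture libraries, and Lats2 was the least abundant, with 7.37 RPKM. Wwtr1 had a median of 78.5 RPKM and Yap1 of 16.6 RPKM in mono-culture. The medians of Ankrd1 and Ctgf were 77.4 and 45.5 RPKM in mono-culture. Tead1 stood at 14.9, Amotl2 at 18.3 and Ajuba at 25.02 RPKM. In coculture, the median of Ankrd1 was 188 RPKM and that of Yap1 12.9 RPKM. Genes on the opposite strand overlap Yap1 (Gm20416), Wwtr1 (Gm16016), Tead1 (2310014F06Rik) and Ctgf (Gm15270) in the annotation. Whether counting used strand is not given in the sources used here, and without it the reads of such a pair cannot be told apart. All further levels are CPM, scaled to the normalized size of each library, and log2 changes are coculture minus mono-culture.

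Coculture with fibroblasts moved the members in different directions. Ankrd1 rose in 7 of the 8 lines, Yap1 fell in 6, Wwtr1 and Ajuba rose in 4 each and fell in none, and Tead1 fell in 3 and rose in none. Lats2, Amotl2, Ctgf, Cyr61 and Axl each rose in at least 1 line and fell in at least 1 other, as 17.8% of all genes did. Of the 80 tests of a member in a line, 23 were called higher and 16 lower at an adjusted p under 0.1 (edgeR's quasi-likelihood test with Benjamini-Hochberg adjustment over all genes), against 23.7% and 21.9% of all gene and line pairs. The members as a list were thus called about as often as genes in general. By line, 8 of the 10 members were called in clone E, 6 in H, 5 in V, 2 in K, 4 in M, 5 in N, 5 in T and 4 in KPC1, against 61.3%, 44%, 61.5%, 20.5%, 38.9%, 37.4%, 62.2% and 39.2% of all genes. The libraries of the 2 cultures did not overlap in 28 of the 80 pairs of member and line, against 35.3% of all pairs. Changes of at least 2-fold were called higher in 8 of the 80 tests and lower in 1, against 7.12% and 6.38% of all pairs, and 6 of the 8 were Ankrd1.

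**Figure D1:**
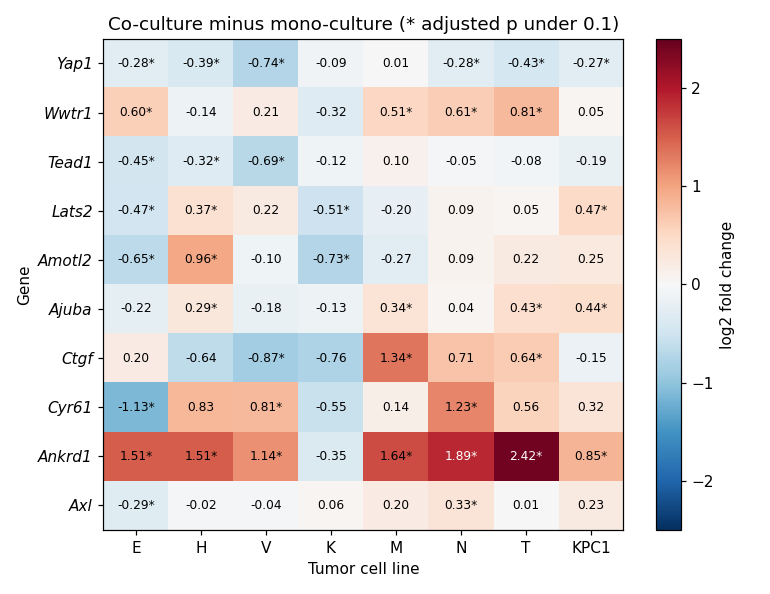
The log2 change of each of the 10 members (rows) in each of the 8 lines (columns), coculture minus mono-culture, by color and number, with an asterisk where the adjusted p was under 0.1. Ankrd1 changed by between -0.35 in clone K and 2.42 in clone T, and Yap1 by between -0.74 in clone V and 0.01 in clone M.

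Yap1, the gene of YAP, fell in coculture in 6 lines, by 1.21-fold to 1.67-fold. In clone V, Yap1 measured 168, 179.8, 169 and 179 CPM in the 4 mono-culture libraries and 91.4, 109, 106 and 109.6 CPM in the 4 coculture libraries, a log2 change of -0.74 (SE 0.08, adjusted p = 1.3e-10). In clone T the levels were 149.8, 156, 147 and 167 CPM alone and 125, 107, 113 and 114 CPM with fibroblasts, a change of -0.43 (SE 0.08, adjusted p = 1.05e-05). In clone H they were 149, 154, 156 and 157 CPM and 127, 104, 113 and 127 CPM, a change of -0.39 (SE 0.08, adjusted p = 0.000187). In all 3 clones every coculture library lay below every mono-culture library. The levels of clone E were 149, 135, 158 and 156 CPM and 117, 122, 133 and 119 CPM, with a change of -0.28 (SE 0.08, adjusted p = 0.00265). Clone N gave 152, 169, 168 and 154 CPM and 134, 139, 141 and 116 CPM, with a change of -0.28 (SE 0.08, adjusted p = 0.00783). The KPC1 line had the lowest Yap1 of the 8 lines in both cultures, 96.8, 93.8, 119.6 and 96.5 CPM and 89.8, 76.7, 79.97 and 90.8 CPM, and a change of -0.27 (SE 0.08, adjusted p = 0.00956). Its mono-culture replicate 3 stood above the other 3 libraries, and without replicate 3 the call was lost (-0.16, adjusted p = 0.251, with 0.00154 to 0.251 over all alternatives). The cultures did not overlap in these 3 lines either. Clone K, with the highest Yap1, measured 272, 202, 226 and 201 CPM and 211, 222, 207 and 205 CPM, and clone M 181, 173, 169 and 168 CPM and 181, 176, 179 and 162 CPM. In these last clones the cultures overlapped, with changes of -0.09 (adjusted p = 0.503) and 0.01 (adjusted p = 0.923). Of all genes, 7.53% were called lower in at least 6 lines.

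Wwtr1, the gene of TAZ, rose in clones T, N, E and M, by 1.43-fold to 1.75-fold, and was called in neither direction in the other lines. In clone T the libraries held 352, 355, 353 and 322 CPM in mono-culture and 553, 575, 668 and 618 CPM in coculture, a change of 0.81 (SE 0.15, adjusted p = 1.56e-05). In clone E they held 328, 280.2, 321 and 281 CPM and 429.6, 405, 565 and 432 CPM, a change of 0.60 (SE 0.15, adjusted p = 0.000964). Clone M, which had the lowest Wwtr1 of all lines, gave 212, 228, 225 and 208 CPM and 275, 284, 359 and 325 CPM, a change of 0.51 (SE 0.15, adjusted p = 0.00885). The cultures did not overlap in these 3 clones. In clone N the mono-culture libraries formed a lower and a higher pair, 309, 301, 546 and 543 CPM, and overlapped with the coculture libraries at 461, 599.9, 838 and 701 CPM (change 0.61 (SE 0.15, adjusted p = 0.002)). Clone K went the other way in value, from 664, 454, 552 and 428 CPM to 439, 435, 415 and 392 CPM, but the change of -0.32 (SE 0.15, adjusted p = 0.164) was not called. For clones H and V and the KPC1 line the changes were -0.14, 0.21 and 0.05, with overlapping cultures in each. A pattern of at least 4 lines higher and none lower was seen for 21.8% of all genes.

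The balance of TAZ to YAP transcripts was taken as the ratio of Wwtr1 to Yap1 in RPKM in each library. In clone T the ratio was 4.36, 4.25, 4.41 and 3.63 in mono-culture and 8.196, 10.1, 11.2 and 10.2 in coculture. In clone V it was 4.54, 4.08, 5.11 and 4.19 and 8.07, 8.99, 9.25 and 7.68, and in clone E 4.13, 3.89, 3.77 and 3.39 and 6.87, 6.18, 7.91 and 6.799. Every coculture library of these 3 clones lay above every mono-culture library, with mean ratios that were 2.39, 1.897 and 1.83 times as high. Clone M also moved up without overlap, from a mean of 2.36 ± 0.132 to 3.31 ± 0.481 (SD, n = 4). Clone K was the exception, with every coculture library below every mono-culture library, 4.28 ± 0.304 against 3.701 ± 0.1 (SD, n = 4). In clones H and N and in the KPC1 line the cultures overlapped, with mean ratios in coculture that were 1.19, 1.85 and 1.25 times as high. The ratio was not tested.

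**Figure D2:**
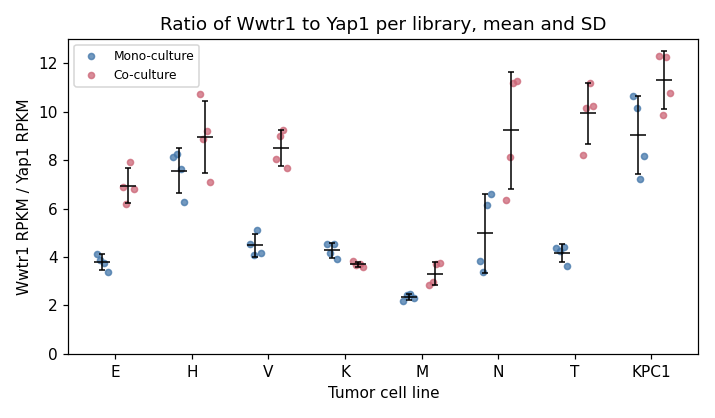
The ratio of Wwtr1 to Yap1 in RPKM (vertical axis) for each library, by line and culture, with the mean and SD of 4 libraries. Clone T moved from a mean of 4.16 to 9.93, whereas clone K moved from 4.28 to 3.701.

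In mono-culture the order of the lines for Yap1 ran from clone K (225 ± 33.3 CPM, mean and SD) over V, M, N, T, H and E to the KPC1 line (102 ± 12.01 CPM). Only the steps from K to V and from E to KPC1 were called, and no neighbours among the lines between them differed beyond their spread. For Wwtr1 the order was H (624 ± 69.2 CPM), K, KPC1, N, V, T, E and M (218 ± 9.67 CPM), with the step from E to M as the only neighbours called. Across the 8 lines the mono-culture levels of Yap1 and Wwtr1 had a Pearson r of -0.09. In coculture, clone K remained the line highest in Yap1 (211 ± 7.58 CPM), followed by M (175 ± 8.73 CPM), each called against the next line. Wwtr1 was highest in clone N (649.8 ± 159 CPM), with no neighbours called before the step from K to M (311 ± 38.9 CPM).

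Tead1 encodes a member of the TEAD factors, which carry YAP and TAZ to DNA. Of the 10 genes it varied least between the lines, 1.497-fold from clone M to clone H in mono-culture, and 89.6% of all genes had a larger range. It fell in clones V, E and H and was not called in the other 5 lines. In clone V it measured 202, 202, 211 and 239.8 CPM alone and 101, 136, 141 and 149.9 CPM with fibroblasts, a change of -0.69 (SE 0.12, adjusted p = 5.34e-06) without overlap. In clone E it measured 249.9, 178, 284 and 215 CPM and 164, 135, 228 and 151 CPM, a change of -0.45 (SE 0.12, adjusted p = 0.00174) with overlapping cultures. In clone H it measured 298, 259, 268 and 271 CPM and 216, 222, 229 and 211 CPM, a change of -0.32 (SE 0.12, adjusted p = 0.0341) without overlap. The call in clone H was lost without replicate 1 (-0.26, adjusted p = 0.139) and without replicate 4 (-0.31, adjusted p = 0.109), the range over its alternatives being 0.00542 to 0.139. In the remaining lines the change lay between -0.19 in KPC1 and 0.10 in clone M, and the cultures overlapped in each.

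**Figure D3:**
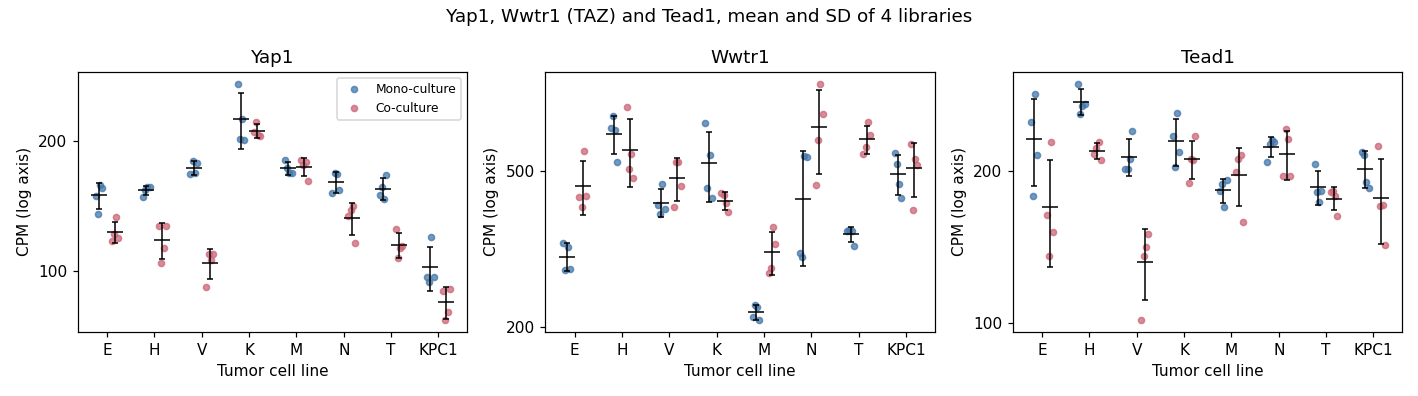
Levels of Yap1, Wwtr1 and Tead1 in CPM (log axis) in each of the 64 libraries, by line and culture, with the mean and SD of 4 libraries. Yap1 stood lower in coculture without overlap in E, H, V, N, T and KPC1, and Wwtr1 higher without overlap in E, M and T.

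Lats2, the kinase gene that YAP and TAZ themselves induce, rose in clone H and the KPC1 line and fell in clones E and K. In KPC1 the levels were 45.4, 52.3, 44.4 and 46.7 CPM in mono-culture and 62.2, 75.2, 59.1 and 65.5 CPM in coculture, a change of 0.47 (SE 0.13, adjusted p = 0.00389). In clone H they were 46.1, 47.9, 49.5 and 54.1 CPM and 48.1, 64.1, 77.01 and 66.8 CPM, a change of 0.37 (SE 0.13, adjusted p = 0.0173), which was lost without replicate 3 (0.28, adjusted p = 0.195, with 0.00603 to 0.195 over all alternatives). The cultures overlapped in clone H and did not in KPC1. In clone K Lats2 went from 146, 89.3, 118 and 102 CPM to 79.6, 83.3, 80.04 and 76.7 CPM, a change of -0.51 (SE 0.13, adjusted p = 0.00254). In clone E it went from 60.2, 48.3, 56.98 and 58.5 CPM to 37.99, 38.99, 46.7 and 38.2 CPM, a change of -0.47 (SE 0.13, adjusted p = 0.00169). Neither of these clones showed overlap. Changes in the remaining clones lay between -0.20 in M and 0.22 in V and were not called. Lats2 shares its strand with the overlapping gene Gm49361, and how the authors counted reads on both is not given in the sources used here.

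Amotl2 encodes an angiomotin-like protein that binds YAP and holds it outside the nucleus, and like Lats2 it is induced by YAP and TAZ. It rose 1.94-fold in clone H and fell in clones K and E. Clone H had 83.4, 92.6, 92.99 and 112 CPM in mono-culture and 109.6, 209.6, 245 and 177 CPM in coculture, a change of 0.96 (SE 0.22, adjusted p = 0.000535). Only its lowest coculture library, at 109.6 CPM, reached into the range of the mono-cultures. Clone K, with the highest Amotl2 of all lines, had 806, 387, 612 and 474 CPM and 387, 366, 356 and 265 CPM, a change of -0.73 (SE 0.22, adjusted p = 0.0136). Clone E had 207, 215, 181 and 248 CPM and 145, 150.3, 154 and 91.2 CPM, a change of -0.65 (SE 0.22, adjusted p = 0.0096). The cultures of K and E were apart, the highest coculture library of K lying just below its lowest mono-culture library. The call was lost in clone K without replicate 1 (-0.58, adjusted p = 0.143, with 0.00962 to 0.143 over all alternatives) and in clone E without replicate 4 (-0.42, adjusted p = 0.148, with 0.00498 to 0.148 over all alternatives). The other 5 lines had changes between -0.27 in M and 0.25 in KPC1, none of them called. Over the 8 lines the changes of Lats2 and Amotl2 had a Pearson r of 0.86, and their mono-culture levels one of 0.86.

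Ajuba encodes a LIM-domain protein that binds LATS kinases and limits their action on YAP. It rose in the KPC1 line and in clones T, M and H, by 1.22-fold to 1.36-fold. In KPC1 the 4 libraries held 85.03, 94.00, 85.7 and 74.97 CPM alone and 109, 116, 133 and 102 CPM with fibroblasts, a change of 0.44 (SE 0.13, adjusted p = 0.00685). In clone T they held 82.3, 98.5, 80.4 and 97.97 CPM and 106, 131, 138 and 108 CPM, a change of 0.43 (SE 0.13, adjusted p = 0.00356). The cultures did not overlap in either line. In clones M and H they overlapped, with changes of 0.34 (SE 0.13, adjusted p = 0.0373) and 0.29 (SE 0.13, adjusted p = 0.0717). The call in clone M was lost without replicates 2 or 4 (adjusted p of 0.00873 to 0.155 over its alternatives) and that in clone H without replicates 2, 3 or 4 (0.0315 to 0.28). In clone H the first coculture library, at 86.1 CPM, stood below the other 3 at 125 to 128 CPM. Clones E, V, K and N had changes of -0.22, -0.18, -0.13 and 0.04, none of them called.

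Axl, a receptor tyrosine kinase gene that YAP induces in several cancers, was expressed at 622 CPM or more in all 64 libraries. Its largest change within a line was smaller than that of any other member. Clone N, with the lowest Axl of the 8 lines, measured 751, 915, 622 and 715 CPM in mono-culture and 763, 1013, 1066 and 925 CPM in coculture, a change of 0.33 (SE 0.13, adjusted p = 0.05). Clone E measured 1496, 1387, 1602 and 1442 CPM and 1173, 1362, 1482 and 818 CPM, a change of -0.29 (SE 0.13, adjusted p = 0.0496). The cultures overlapped in both clones. The rise in N was lost without replicate 3 (0.18, adjusted p = 0.445, with 0.0191 to 0.445 over all alternatives). The fall in E was lost without replicate 4, whose coculture library was the lowest (-0.16, adjusted p = 0.332), and without replicate 1 (-0.30, adjusted p = 0.115), with 0.00484 to 0.332 over all alternatives. The remaining 6 lines had changes between -0.04 in V and 0.23 in KPC1, none of them called.

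**Figure D4:**
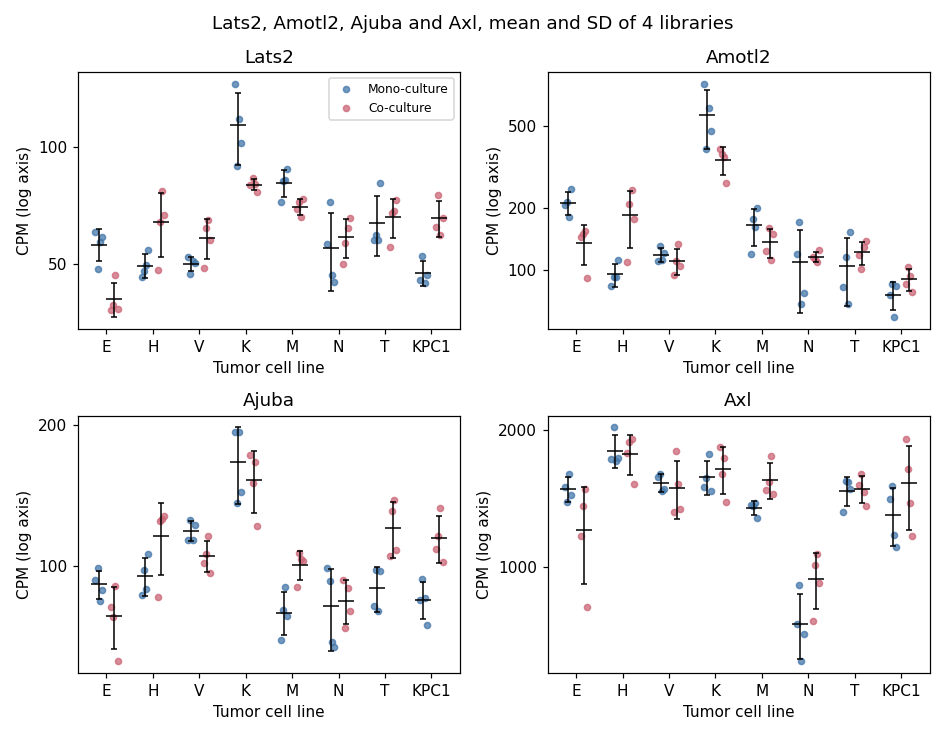
Levels of Lats2, Amotl2, Ajuba and Axl in CPM (log axis) in each of the 64 libraries, by line and culture, with the mean and SD of 4 libraries. Clone K stood highest in Lats2, Amotl2 and Ajuba in both cultures, with 569.7 CPM of Amotl2 in mono-culture, and clone N lowest in Axl, with 751 CPM in mono-culture and 942 CPM in coculture.

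Ankrd1, an early target gene that encodes an ankyrin-repeat protein of the nucleus and of the sarcomere, was the member that changed most. It rose in every line but clone K, by 1.797-fold to 5.35-fold, whereas 5.54% of all genes were called higher in at least 7 lines. In clone T the 4 mono-culture libraries held 62.7, 58.8, 40.8 and 68.8 CPM and the 4 coculture libraries 281, 335, 325 and 296 CPM, a change of 2.42 (SE 0.29, adjusted p = 9.5e-10). In clone N they held 45.4, 41.97, 47.9 and 68.6 CPM and 162, 112, 245 and 236 CPM, a change of 1.89 (SE 0.29, adjusted p = 1.48e-06). In clone M they held 48.4, 71.5, 95.9 and 79.1 CPM and 126, 198, 261 and 333 CPM, a change of 1.64 (SE 0.28, adjusted p = 1.2e-05). These 3 clones began with the lowest levels, and every coculture library stood above every mono-culture library. Clone E went from 139.7, 148, 105 and 126 CPM to 420.3, 278, 441 and 338 CPM, a change of 1.51 (SE 0.28, adjusted p = 9.87e-06). Clone H went from 231, 221, 239.9 and 292 CPM to 459, 693, 957 and 695 CPM, a change of 1.51 (SE 0.28, adjusted p = 3.26e-05). Clone V went from 261, 225, 262 and 216 CPM to 588, 610.5, 415 and 512 CPM, a change of 1.14 (SE 0.28, adjusted p = 0.000469). The cultures of these 3 clones were apart as well, with the widest coculture range in clone H. In the KPC1 line the mono-cultures held 252, 378, 123 and 245 CPM and the cocultures 551, 581, 328 and 334 CPM, an overlap with a change of 0.85 (SE 0.28, adjusted p = 0.0158). Clone K, the highest in mono-culture, held 914, 333, 735 and 377 CPM and 558, 459, 521 and 309.6 CPM, and its change of -0.35 (SE 0.27, adjusted p = 0.438) was not called. Its mono-culture libraries formed a higher and a lower pair, and the lower pair lay within the range of the cocultures. Clone K also responded least over all genes, 20.5% of which were called there, against 37.4% to 62.2% in the other lines. With the libraries of label numbers above 43 alone, in which clone K had 4 mono-cultures and 2 cocultures, its mean Ankrd1 was 589.8 CPM in mono-culture and 539.6 CPM in coculture. Over the 32 coculture libraries, which share lines and sequencing depth, deviations from the line means had a Pearson r with the summed fibroblast markers of -0.03 for Ankrd1, 0.45 for Tead1, 0.33 for Yap1, 0.33 for Wwtr1 and 0.26 for Lats2. For the other 5 members it lay between -0.15 for Ajuba and 0.15 for Cyr61.

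Ctgf encodes a secreted matricellular protein that is widely used as a readout of YAP and TAZ. It rose in clone M and, less firmly, in clone T, and fell in clone V. In clone M the libraries held 54.03, 75.1, 111 and 79.2 CPM in mono-culture and 123, 174, 241 and 266 CPM in coculture, a 2.52-fold rise with a change of 1.34 (SE 0.34, adjusted p = 0.00178). In clone V they held 263, 253, 255 and 197 CPM and 129.8, 158, 128 and 115 CPM, a change of -0.87 (SE 0.33, adjusted p = 0.0235). The cultures were apart in both clones, in opposite directions. In clone T they overlapped, at 64.3, 96.1, 51.4 and 113 CPM and 198, 58.8, 108 and 141 CPM, with a change of 0.64 (SE 0.33, adjusted p = 0.0983). This call was lost without replicate 1 (0.23, adjusted p = 0.64) and in several other settings, and its adjusted p ran from 0.0318 to 0.64 over all alternatives. In clone K the mono-cultures again formed a higher and a lower pair, 637, 220.2, 662 and 185 CPM, against 345, 269, 265 and 127 CPM in coculture, and the change of -0.76 (SE 0.33, adjusted p = 0.114) was not called. The changes in H, N, E and KPC1 were -0.64 (adjusted p = 0.126), 0.71 (adjusted p = 0.107), 0.20 (adjusted p = 0.641) and -0.15 (adjusted p = 0.772), all with overlapping cultures. Reads of Ctgf, which the annotation names Ccn2, cannot be told apart from those of the opposite-strand gene Gm15270 if strand was not used in counting.

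Cyr61, named Ccn1 in the annotation, encodes another secreted matricellular protein of the same family. It rose in clones N and V and fell in clone E. Clone N measured 109.8, 294, 123 and 190.3 CPM in mono-culture and 267, 352, 441 and 620.5 CPM in coculture, a 2.34-fold rise with a change of 1.23 (SE 0.43, adjusted p = 0.0245). Clone V measured 329, 301, 622 and 391 CPM and 668, 693, 672 and 841 CPM, a change of 0.81 (SE 0.42, adjusted p = 0.0998) that lay at the threshold. Clone E measured 999, 971, 579 and 1778 CPM and 635, 439.7, 467 and 434 CPM, a 2.19-fold fall with a change of -1.13 (SE 0.42, adjusted p = 0.0209). Only in clone V were the cultures apart, and none of the 3 calls held in every setting. Without replicate 4, the change was 1.01, adjusted p = 0.121, in clone N, 0.70, adjusted p = 0.219, in clone V and -0.73, adjusted p = 0.208, in clone E. The adjusted p ran from 8.22e-05 to 0.121 for clone N, from 0.00163 to 0.231 for clone V and from 0.000297 to 0.208 for clone E over all alternatives. In clone V it was also lost without replicates 1 and 2. Libraries of 1 line and culture were often far apart for Cyr61, as in the mono-cultures of clone M at 233, 226, 1072 and 820.2 CPM, and in both cultures of M replicates 3 and 4 were the high ones (281, 240.1, 1016 and 1048 CPM in coculture). The changes in H, K, M, T and KPC1 were 0.83, -0.55, 0.14, 0.56 and 0.32, with adjusted p from 0.115 to 0.835.

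The 3 target genes did not move together within the lines. In clone V, Ctgf fell while Cyr61 and Ankrd1 rose, and in clone E, Cyr61 fell while Ankrd1 rose. Over the 8 lines, the changes of Ctgf and Cyr61 had a Pearson r of 0.01, those of Ctgf and Ankrd1 one of 0.59 and those of Cyr61 and Ankrd1 one of 0.44. The change of Wwtr1 had an r of 0.83 with that of Ankrd1, 0.76 with that of Ctgf and 0.11 with that of Cyr61. For the change of Yap1 these values were -0.27, 0.53 and -0.46. The levels of Wwtr1 and Ankrd1 had an r of 0.64 in mono-culture and 0.10 in coculture over the lines. The levels of Ctgf and Ankrd1 had an r of 0.90 over the lines in mono-culture, where clone K was highest in both, and of 0.38 in coculture. These are descriptions over 8 lines, whose libraries are shared between the genes.

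**Figure D5:**
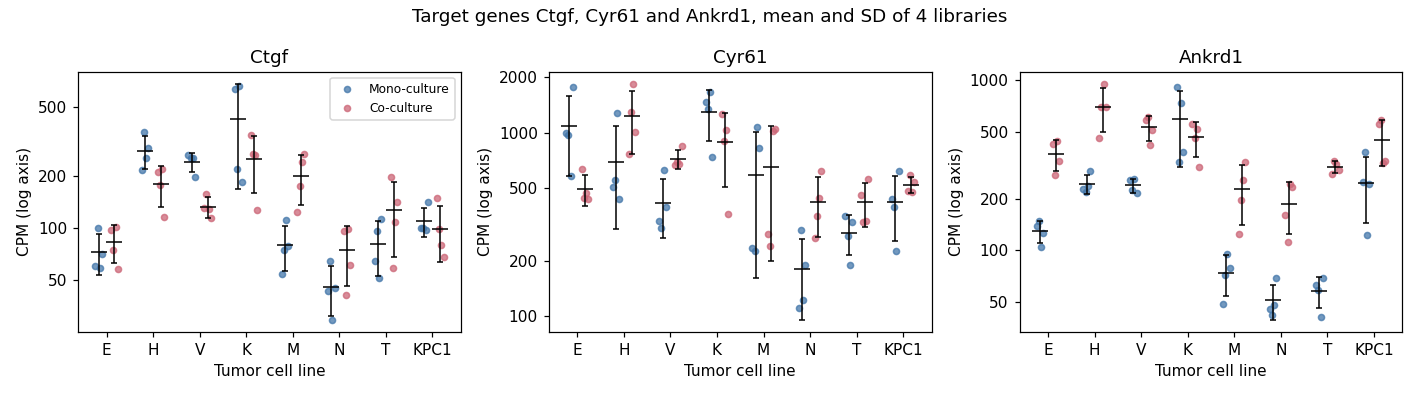
Levels of Ctgf, Cyr61 and Ankrd1 in CPM (log axis) in each of the 64 libraries, by line and culture, with the mean and SD of 4 libraries. Ankrd1 rose from a mean of 57.8 to 309 CPM in clone T, while in clone K it stood at 589.8 CPM in mono-culture and 462 CPM in coculture.

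Each of the 10 members differed between the 8 lines in mono-culture, as 95.1% of all genes did (edgeR's quasi-likelihood F test). The target genes were the most variable, with the highest line above the lowest by 10.8-fold for Ankrd1, 8.25-fold for Ctgf and 7.51-fold for Cyr61, and Amotl2 followed with 7.29-fold. The median range over all genes was 2.33-fold. Clone K was highest in Yap1, Lats2, Amotl2, Ajuba, Ctgf, Cyr61 and Ankrd1, and clone N lowest in Ctgf, Cyr61, Ankrd1 and Axl. For Ankrd1 the order in mono-culture was K (589.8 ± 282 CPM, mean and SD), KPC1, H, V, E, M, T and N (50.97 ± 12.01 CPM), and the neighbours K and KPC1, V and E, and E and M differed. For Ctgf it was K (426 ± 259 CPM), H, V, KPC1, T, M, E and N (45.5 ± 14.5 CPM), and only V and KPC1 differed among neighbours. For Cyr61 it was K (1302 ± 402 CPM), E, H, M, KPC1, V, T and N (179 ± 84.3 CPM), with no neighbours that differed beyond their spread. Clone K stood apart from its next neighbour in Lats2, Amotl2 and Ajuba too. All 4 mono-cultures of clone K carried label numbers above 43, so its standing in mono-culture and the label series cannot be told apart.

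In coculture the lines stood closer together for the target genes. The range from the lowest to the highest line was 3.77-fold for Ankrd1, 3.38-fold for Ctgf, 2.91-fold for Cyr61 and 3.79-fold for Amotl2. It was narrower than in mono-culture for 8 of the 10 members, against 57.6% of all genes, and at least 2-fold narrower for Ctgf, Cyr61 and Ankrd1, against 11.7% of all genes. Yap1 and Tead1 were the exceptions, with ranges of 2.21-fold and 1.497-fold in mono-culture and 2.51-fold and 1.68-fold in coculture. Clone K was the highest line in mono-culture for Ctgf, Cyr61 and Ankrd1, and all its mono-cultures carried label numbers above 43. The next lines in mono-culture stood at 281 CPM for Ctgf (H), 1082 CPM for Cyr61 (E) and 250 CPM for Ankrd1 (KPC1). The part of clone K in the narrower ranges was not tested. The 3 target genes had no neighbouring lines that differed in coculture, where the order for Ankrd1 ran H (701 ± 203 CPM), V, K, KPC1, E, T, M and N (189 ± 63.3 CPM). The response to coculture differed between the lines for all 10 members, with the lowest adjusted p of 3.89e-06 for Ankrd1 and the highest of 0.0657 for Axl, and for 71.3% of all genes.

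With the line as the replicate, the question was whether a response was shared over the 8 lines. Counts were summed over the 4 libraries of each line and culture, and the 16 sums were tested with the line as a covariate. Ankrd1 rose by a mean log2 change of 1.35 (SE 0.25, adjusted p = 0.00324) and was higher in 7 of 8 lines. Yap1 had a mean change of -0.29 (SE 0.08, adjusted p = 0.0122) and was lower in 7 of 8 lines. Wwtr1 was higher in 6 of 8 lines, with a mean of 0.31 (SE 0.13, adjusted p = 0.0662), and Tead1 lower in 7 of 8 lines, with a mean of -0.21 (SE 0.08, adjusted p = 0.0646). These 4 members were called among 16246 genes, 26.8% of which were called higher and 25.2% lower. The median change of the 10 members was 0.075 and that of all genes 0.00598. The calls of Ankrd1 and Yap1 stood without any single line, whereas that of Wwtr1 was lost without E, V, M, N or T (lowest 0.23, adjusted p = 0.169, without T) and that of Tead1 without E, H or V (-0.16, adjusted p = 0.131, without V) and without replicate 4. Over all alternatives the adjusted p ran from 0.0184 to 0.169 for Wwtr1 and from 0.0348 to 0.135 for Tead1.

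In an exact permutation test (two-sided) that ran through all sign changes of the 8 line differences, run for each of the 10 members, p without adjustment was 0.0156 for Ankrd1 and the same for Yap1, 0.0312 for Tead1 and 0.0859 for Wwtr1, where 0.00781 is the smallest this design can give. The other 6 members were not called, with mean changes of 0.29 for Cyr61, 0.15 for Ajuba, 0.08 for Axl, 0.07 for Ctgf, 0.01 for Lats2 and -0.02 for Amotl2. Within the libraries with label numbers up to 43, which gave a difference for 7 lines, the mean log2 change was 1.71 for Ankrd1 (higher in 7 of 7), -0.37 for Yap1 (lower in 6 of 7), 0.44 for Wwtr1 (higher in 6 of 7) and -0.21 for Tead1 (lower in 6 of 7). Within those above 43, with 5 lines, it was 1.09 for Ankrd1 (higher by 1.25 in H, 1.47 in M, 2.51 in T and 0.20 in KPC1, against 0.001 in clone K), -0.25 for Yap1 (lower in 4 of 5), 0.17 for Wwtr1 (higher in 3 of 5) and -0.14 for Tead1 (lower in 4 of 5). The mean change of each of the 4 members kept its direction in both label series, though some line differences rested on single libraries. Above 43, the differences in H and M each set 1 mono-culture against 1 coculture library, and that in KPC1 set 3 against 1. Up to 43, the difference in KPC1 set 1 mono-culture against 3 coculture libraries.

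The study parts the 7 clones by their metabolites into a group 1 of clones V, H and E and a group 2 of clones T, N, M and K, and no member was called between the groups at the level of clones, in mono-culture, in coculture or for the interaction of group and culture (edgeR's quasi-likelihood test on summed counts, 3 against 4 clones). Over all genes 0%, 0.00679% and 0.00618% were called. At an unadjusted p under 0.05 there were 0, 1 and 1 members, against 5.17%, 8.57% and 7.51% of all genes. The member in coculture was Ankrd1, with 542 ± 176 CPM over the clones of group 1 (SD, n = 3) against 298 ± 120.3 CPM over those of group 2 (SD, n = 4) and a log2 difference of 0.87 (SE 0.34, adjusted p = 0.581). Its clones overlapped between the groups, since clone K lay above clone E. The member in the interaction was Tead1, whose change was more negative in group 1 by -0.45 (SE 0.12, adjusted p = 0.596), and DESeq2 called it (-0.47, adjusted p = 0.055). All 10 members overlapped between the groups in both cultures, while 5.38% of genes in mono-culture and 9.09% in coculture did not.

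The other genes of the pathway, listed by their known roles, moved as follows in the mean response over the 8 lines. Of 21 genes of the Hippo cascade and its upstream regulators, 2 rose, 6 fell and 13 did not pass the test, where 26.8% of all genes rose and 25.2% fell, with a median change of -0.03. Taok1 and Taok2, kinases that act on the MST kinases of the cascade, fell by 0.31 and 0.30 on the log2 scale (adjusted p = 0.00308 and 0.00376). The 2 that rose were the protocadherin genes Fat4, by 2.33 (SE 0.45, adjusted p = 0.00355), and Dchs1, by 6.33 (SE 0.55, adjusted p = 9.27e-05). In mono-culture Dchs1 reached at most 0.0472 CPM and Fat4 at most 2.24 CPM in any line, and the fibroblast markers rose alongside.

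Of 7 TEAD and VGLL cofactor genes, 6 were tested, of which 2 rose, 1 fell and 3 did not pass, against the same 26.8% and 25.2% of all genes. Vgll4, whose product competes with YAP for TEAD factors, changed by -0.53 (SE 0.11, adjusted p = 0.00437), and Tead4 by 0.36 (SE 0.13, adjusted p = 0.044). Vgll3 changed by 6.32 (SE 0.71, adjusted p = 0.000437), from at most 0.47 CPM in mono-culture to 2.78 to 4.35 CPM over the lines in coculture, again beside the fibroblast markers. The list of 16 further target genes split into 4 that rose, 5 that fell and 7 that did not pass, shares near those of all genes, with a median change of -0.15. Arhgef17, a guanine nucleotide exchange factor gene, changed by -0.53 (SE 0.09, adjusted p = 0.00232) and Foxf2, a forkhead transcription factor gene, by -0.89 (SE 0.16, adjusted p = 0.00272). The stress-response gene Gadd45a rose by 1.27 (SE 0.25, adjusted p = 0.00358) and Ccdc80, which encodes a secreted matrix protein, by 0.74 (SE 0.14, adjusted p = 0.00368).

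Genes whose log2 CPM over the 16 line and culture means were most like those of 4 members were ranked by Pearson r. For Yap1 they were Glyr1 (0.965), Trim12a (0.961) and Nin (0.958), and for Wwtr1 St6galnac4 (0.917), Clic4 (0.914) and Samd4 (0.911). For Ctgf they were Filip1l (0.95), Gp1bb (0.928) and Fblim1 (0.925), and for Ankrd1 Hsf2 (0.955), Phf16 (0.92) and Fam65b (0.917). None of the other 9 members was among the 3 genes most like any of these 4. A list of only 3 out of all genes cannot show whether the members vary together.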

How the data were processed

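Counts and RPKM of 64 libraries (8 lines, 2 cultures, 4 libraries each) were analysed. The authors deposited whole-number read counts on 39017 genes, not normalized. The authors also deposited RPKM, in which they scaled reads by gene length and library total. The libraries were strand-specific, polyadenylated and paired-end. The submitters' processing notes name featureCounts, edgeR and mm10, and the aligner and the use of strand in counting are not given in the sources used here. No column of per-sample values was left unused (0). Libraries were grouped by the line and culture in their labels, and clones by the study's assignment to group 1 or 2, with KPC1 in neither. A further allele of the model is not reported here.

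Counts were tested with edgeR 4.0.16 in R 4.3.3 (TMM, filterByExpr, glmQLFit and glmQLFTest, Benjamini-Hochberg over all genes, threshold 0.1, after the study) with 16 groups for tests within lines, and on sums of the 4 libraries for tests over lines or clones. CPM used TMM-scaled library sizes, with a prior count of 0.5 for log2. The fit was tested on simulated data. No libraries of a group agreed within counting noise. Positions are from GENCODE M21 (GRCm38) and promoters from RefSeq (GRCm38.p6). Named genes are the 10 members, per pathway list up to 4 genes with the smallest p in the mean response, and the 3 genes most like Yap1, Wwtr1, Ctgf and Ankrd1. The members and lists were chosen with earlier results of these data known. The alternatives were DESeq2 1.42.0, RLE, no filter, thresholds, the block and the label series as covariates, limma 3.58.1 on log2(RPKM + 1) and log2(RPKM + 0.1), a prior count of 2, leaving out each replicate number or line, and, added after seeing the data, leaving out the coculture library highest in fibroblast markers in each line.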

Additional observations from a re-analysis of the deposited data

Results flagged for a closer look

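Of 160 groups of 4 libraries (10 members, 8 lines, 2 cultures), 12 held a library whose gap to the nearest other exceeded Dixon's 95% critical value for 4 samples, and chance alone gives about 1 in 20, or 8 groups. In mono-culture the library apart was replicate 3 of KPC1 for Yap1 (119.6 CPM against 93.8 to 96.8 CPM in the others), replicate 4 of T for Wwtr1 (322 CPM against 352 to 355 CPM) and for Lats2 (80.5 CPM against 57.5 to 59.1 CPM), and replicate 4 of V and of KPC1 for Ctgf (197 CPM against 253 to 263 CPM, and 141 CPM against 97.2 to 100.2 CPM). It was replicate 3 of H for Cyr61 (1272 CPM against 434 to 549 CPM) and replicate 2 of H for Axl (2026 CPM against 1713 to 1731 CPM). In coculture it was, in clone E, replicate 3 for Lats2 (46.7 CPM against 37.99 to 38.99 CPM), replicate 4 for Amotl2 (91.2 CPM against 145 to 154 CPM) and replicate 1 for Cyr61 (635 CPM against 434 to 467 CPM). It was replicate 1 of H for Ajuba (86.1 CPM against 125 to 128 CPM) and replicate 4 of V for Cyr61 (841 CPM against 668 to 693 CPM).

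The response to coculture differed between the 8 lines by the F test over 7 contrasts (edgeR's quasi-likelihood test, Benjamini-Hochberg adjustment), with an adjusted p of 1.21e-05 for Yap1, 4.76e-05 for Wwtr1, 0.00229 for Tead1, 6.05e-06 for Lats2 and 0.000113 for Amotl2. It was 0.000914 for Ajuba, 0.000217 for Ctgf, 0.00935 for Cyr61, 3.89e-06 for Ankrd1 and 0.0657 for Axl.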

How the results depend on the processing

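Of 39 changes called within lines, 26 were called under each of the 13 alternatives other than the 2-fold minimum. The other 13 were lost under at least 1, and 0 changed direction. Differences within each label series were not among these alternatives. The counts of 23 higher and 16 lower calls became 8 and 1 at 2-fold or more, where 1 member remained past the threshold in the mean response. Of the 4 members called in the mean response, 2 were past a threshold of 0.05, and 2 to 4 when a replicate or a line was left out, with 2 without line V. No member was called for the interaction of group and culture by edgeR (1 at an unadjusted p under 0.05) and 1, Tead1, by DESeq2. Between the groups, DESeq2 called 0 members in each culture.

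Libraries that share a number in mono-culture and coculture of a line did not deviate together throughout: the correlation of their deviations lay between -0.07 and 0.29 over 32 pairs (median 0.11, 18 over 0.1), so the numbers were not taken to pair the libraries. With the replicate block, 24 changes within lines were called higher and 21 lower, with gained calls for Cyr61 in H (0.90, adjusted p = 0.00183), K (-0.63, adjusted p = 0.0445) and T (0.55, adjusted p = 0.0336), Wwtr1 in K (-0.30, adjusted p = 0.053), Ctgf in H (-0.65, adjusted p = 0.0865), Ajuba in E (-0.23, adjusted p = 0.0613) and Tead1 in KPC1 (-0.20, adjusted p = 0.0807), and a lost call for Ctgf in T (0.58, adjusted p = 0.115).

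Some changes that were not called crossed 0. Leaving out each replicate number in turn, they took log2 values for Yap1 (-0.17 to 0.00974 in K, -0.0139 to 0.034 in M), Wwtr1 (-0.0185 to 0.18 in KPC1), Tead1 (-0.0977 to 0.00965 in N), Lats2 (-0.0561 to 0.27 in N, -0.0182 to 0.13 in T), and for Amotl2 (-0.0843 to 0.41 in N), Ajuba (-0.0678 to 0.17 in N), Ctgf (-0.0283 to 0.42 in E, -0.46 to 0.15 in KPC1), Axl (-0.0766 to 0.028 in H, -0.0845 to 0.0363 in V, -0.0285 to 0.0966 in K, -0.0548 to 0.0559 in T). Mean changes over lines that crossed 0 when a replicate or a line was left out were those of Lats2 (-0.051 to 0.0813), Amotl2 (-0.16 to 0.0715) and Ctgf (-0.12 to 0.20). The change of Axl in H was 0.0028 with no filter on low counts, 0.0264 on log2(RPKM + 1), 0.0264 on log2(RPKM + 0.1) and 0.0569 without the libraries highest in fibroblast markers. That of Wwtr1 in KPC1 was -0.00219 with the label series as a covariate, -0.0103 on log2(RPKM + 1) and -0.0105 on log2(RPKM + 0.1). Without the libraries highest in fibroblast markers, 21 changes were called higher and 17 lower, and values crossed 0 for Axl in V (0.0465), Yap1 in M (-0.00638) and Cyr61 in M (-0.17). The cause was not tested. No scaling moved the median of all genes by more than 0.1 on the log2 scale in any line.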

Other observations

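Libraries of a line were not alike in the members, and some members deviated together. Over the 32 mono-culture libraries, deviations from the mean of each line had a Pearson r of 0.85 between Lats2 and Amotl2, 0.76 between Amotl2 and Ajuba, 0.72 between Amotl2 and Ctgf, and 0.63 between Ctgf and Ankrd1. With Amotl2 it was 0.49 for Ankrd1, 0.40 for Cyr61, 0.35 for Axl, 0.29 for Yap1, 0.02 for Tead1 and -0.33 for Wwtr1. In clone K, for example, mono-culture replicates 1 and 3 were the higher pair for Amotl2, Ctgf and Ankrd1 alike. The deviations of Yap1 had an r of -0.01 with those of Ankrd1. Over the 32 coculture libraries, r was 0.66 between Lats2 and Amotl2 and 0.68 between Cyr61 and Ankrd1. With Amotl2 it was 0.68 for Ajuba, 0.32 for Ctgf, 0.35 for Cyr61, 0.38 for Ankrd1 and 0.39 for Axl. For Tead1, Wwtr1 and Yap1 it was 0.06, -0.14 and -0.21. These values are descriptions, since the genes share their libraries, depth and scaling.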
